A study of Mus musculus with 6 samples.

Results

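Glycolysis and the tricarboxylic acid (TCA) cycle were examined in adult mouse retina through 34 genes that encode their enzymes and the transporters and regulators next to them. The genes were chosen by name, as a list of known enzymes, and not by a rule on their values, though earlier results of these data were known. Of the 34, 31 genes were measured by 75 probe sets that name that gene alone, out of 18193 genes and 45037 probe sets on the arrays. A probe set is a group of short oligonucleotides that together read 1 transcript. No probe set naming Gpi1, Gapdh or Eno1 alone was analysed here, and Gapdh was seen only through the array's control probe sets. The arrays compared retinas of 3 Trim9 KO mice with retinas of 3 WT littermates, 1 array per retina sample, to look for effects of losing the ubiquitin ligase Trim9. In the KO mice exon 1 of Trim9 had been removed by Cre under the CMV promoter, which acts in all tissues, so the loss was not limited to the retina. All mice were raised to maturity, and the labels give no exact age, strain or sex. One protocol note in the labels speaks of embryos, whereas the tissue field and the study's design give adult retina.

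Glycolysis splits glucose into pyruvate in the cytoplasm, and lactate dehydrogenase converts pyruvate to lactate or back. The pyruvate dehydrogenase complex carries pyruvate into the mitochondrion's TCA cycle as acetyl-CoA, and the cycle feeds electrons to the respiratory chain. Retina is known for aerobic glycolysis: photoreceptors turn much of their glucose into lactate even when oxygen is present, and neighbouring glial and pigment epithelial cells exchange glucose and lactate with them.

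Signals were deposited as intensities on a linear scale, brought by the authors to 1 trimmed mean, and the array medians ran between 218 and 807. Each was taken as log2(intensity + 16), and a gene was read by its brightest probe set, the one with the highest mean over the 6 arrays. Fold changes are Trim9 KO over WT. A fold change on this scale understates the change of dim probe sets. The median log2 fold change was 0.18 over all probe sets and 0.14 over all genes, against 0.015 and -0.14 over all probe sets after quantile normalization and after array medians were made equal. Trim9 itself, by its brightest probe set, had intensities of 1498, 497 and 367 on the Trim9 KO arrays, against 4226, 1767 and 1667 on the WT arrays. That probe set had a log2 fold change of -1.81. Its other probe sets had -2.48, -0.77 and -0.58, and in those with -0.77 and -0.58 the genotypes overlapped. How the Trim9 probe sets lie to the deleted exon was not examined. Several arrays stood apart, by different measures. Trim9 KO replicate 1 correlated with the others at Pearson's r of 0.466 to 0.516 across probe sets, against 0.655 to 0.887 between the other 5 arrays. The highest r of WT replicate 2 with any array was 0.682, and that of WT replicate 3 was 0.787. WT replicate 3 had a Gapdh 5′ control signal of 115077, against 132, 252 and 385 on the Trim9 KO arrays and 126 and 283 on the other WT arrays. In the labels nothing ties an array to a litter, and p-values measure the spread between these arrays. The tissue is a bulk sample, in which fewer cells of a type and less RNA per cell cannot be told apart.

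None of the 31 genes passed the test between genotypes. In limma over all 45037 probe sets, 0 probe sets (0.0%) had a Benjamini-Hochberg adjusted p under 0.05, and the lowest adjusted p of a glycolysis or TCA cycle probe set was 0.999. By its brightest probe set 1 of the 31 genes, Dld, had an unadjusted limma p under 0.05, against 2.56% of all genes. With limma's trend and a robust prior 0 passed again, and 2 of the 31 had an unadjusted p under 0.05, against 1096 of the 45037 probe sets. With array weights in limma 0 passed, and 3 of the 31 had an unadjusted p under 0.05, against 3637 of the 45037. In 18 of the 31 the Trim9 KO retinas had the lower mean, against 44.8% of all genes, and in 13 they had the higher. On the 4 arrays left without Trim9 KO replicate 1 and WT replicate 3, a choice made after seeing the data, the counts were 17 lower and 14 higher. There 0 of the 31 had an unadjusted limma p under 0.05, against 1087 of the 45037 probe sets. All 3 Trim9 KO arrays lay below all 3 WT arrays for 3 of the 31 genes, Pdha1, Dld and Idh3a, against 2.89% of all genes. For 0 of the 31 did all Trim9 KO arrays lie above, against 5.35% of all genes. Leaving out 1 array moved the log2 fold change by over 1.5 times, or turned its sign, for 27 of the 31, the exceptions being Dld, Idh3a, Pdha1 and Pfkp. By their mean over the arrays, all 31 were brighter than the median probe set. Reading each gene by its brightest probe set favours this, and over all 75 probe sets of these genes 66 were brighter.

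**Figure D1:**
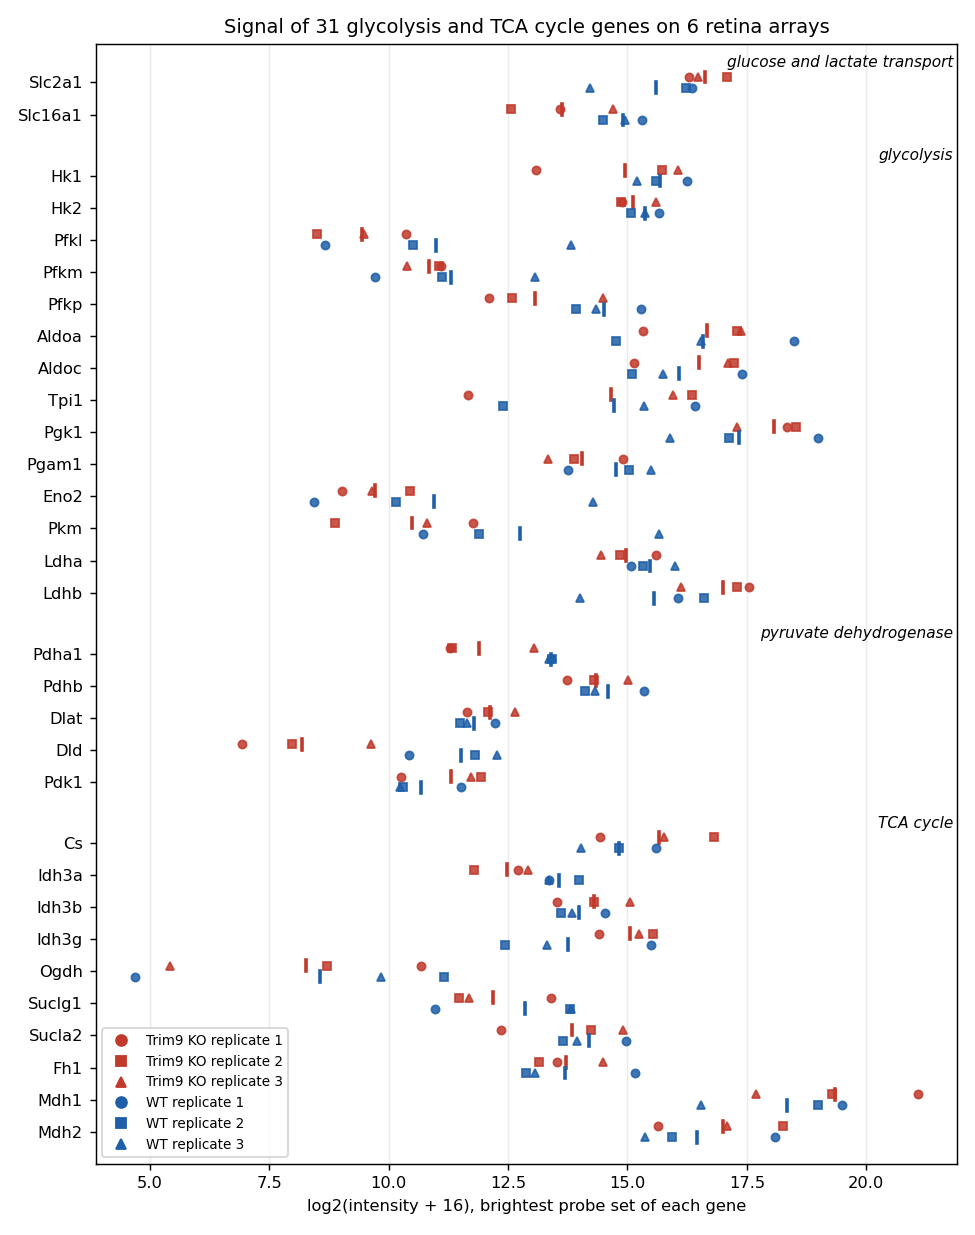
Signal of each of the 31 genes on each array (x axis, log2(intensity + 16) of the brightest probe set), with Trim9 KO arrays in red above WT arrays in blue and a vertical tick at each group mean. The groups are separate for Pdha1, Dld and Idh3a only, and WT replicate 3 (blue triangle) lies far to the right for Pkm, Eno2, Pfkl and Pfkm.

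Glucose enters retinal cells through the transporter Slc2a1 (GLUT1), and lactate and other monocarboxylates cross the membrane through Slc16a1 (MCT1). The brightest Slc2a1 probe set had intensities of 80170.0, 138854 and 90679.8 on Trim9 KO replicates 1, 2 and 3, against 83172, 76705 and 18938 on WT replicates 1, 2 and 3. The groups overlapped, since WT replicate 1 lay above Trim9 KO replicate 1, and only WT replicate 3 was clearly low. Its log2 fold change was 1.02 (standard error, SE, 0.99) and 0.33 without WT replicate 3. A dimmer Slc2a1 probe set ran the other way, at 98.1, 102 and 158 on the Trim9 KO arrays and 247, 795 and 6045 on the WT arrays. Here every Trim9 KO array lay below every WT array, and WT replicate 3 was by far the highest. The log2 fold change of this probe set was -3.03 (SE 1.19, exact permutation p = 0.1, limma adjusted p = 0.999). Slc16a1 averaged 13.62 ± 1.07 in Trim9 KO retinas and 14.91 ± 0.40 in WT retinas (log2 intensity, SD, n = 3 each), with a log2 fold change of -1.29 (SE 0.97) and overlapping groups. Its other probe set had a log2 fold change of -0.072.

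Of the 14 measured glycolysis genes, 10 averaged lower in Trim9 KO retinas, against 44.8% of all genes, and 4 averaged higher. Their median log2 fold change was -0.48. Without WT replicate 3 that median was -0.060. Hexokinases trap glucose in the cell by phosphorylating it, Hk1 being the common brain form and Hk2 a form of muscle, tumours and photoreceptors. Hk1 read 8716, 54162 and 68194 on the Trim9 KO arrays and 77771, 49727 and 37541 on the WT arrays. Trim9 KO replicate 1 alone was low, and the log2 fold change of -0.72 (SE 1.06) turned to 0.21 without it. The other Hk1 probe set was dim, at 47.7, 16.8 and 16.1 on the Trim9 KO arrays and 103, 73.2 and 2173 on the WT arrays. Every Trim9 KO array was below every WT array, with WT replicate 3 again far above the rest (log2 fold change -2.81, SE 1.26, exact permutation p = 0.1, limma adjusted p = 0.999). Hk2 varied little over the arrays, at 30193, 29674 and 49334 on the Trim9 KO arrays and 51651, 34443 and 42284 on the WT arrays. Its groups overlapped, with a log2 fold change of -0.26 (SE 0.90).

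Phosphofructokinase commits the sugar to glycolysis and is built from liver (Pfkl), muscle (Pfkm) and platelet (Pfkp) type subunits. Pfkl read 1310.2, 345 and 703 on the Trim9 KO arrays and 389.7, 1435 and 14436 on the WT arrays. The groups overlapped and WT replicate 3 stood alone above the other 5 arrays, so that the log2 fold change of -1.54 (SE 1.30) was -0.13 without it. The other Pfkl probe sets had log2 fold changes of 0.78 and -0.92. WT replicate 3 was highest for Pfkm too, at 8556, with 2162, 2114 and 1322 on the Trim9 KO arrays and 826 and 2203 on WT replicates 1 and 2. The log2 fold change of Pfkm was -0.46 (SE 1.07) and 0.43 without WT replicate 3. Pfkp had a different order of arrays, at 4350.4, 6089 and 23071 on the Trim9 KO arrays and 39584, 15449 and 20626 on the WT arrays. Trim9 KO replicates 1 and 2 were the lowest and Trim9 KO replicate 3 lay within the WT range, with a log2 fold change of -1.45 (SE 1.02). All 3 Pfkp probe sets averaged lower in Trim9 KO retinas. The dimmest (log2 fold change -2.55, SE 1.09) had a limma adjusted p of 0.999, with 1 Trim9 KO array just above the lowest WT array (111 against 110.1).

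Aldolase splits the sugar into trioses. Aldoa is its muscle form and Aldoc its brain form. Aldoa read 40766, 161070.0 and 170373 on the Trim9 KO arrays and 364532, 27541 and 94570.0 on the WT arrays. Both its highest and its lowest signals were WT, and the log2 fold change of 0.08 (SE 1.17) turned to -0.28 after quantile normalization and -0.24 after array medians were made equal. Its brightest probe set may cross-hybridize by design, as may those of Pgk1 and Mdh1. Aldoc read 36169.7, 153829 and 141513 on the Trim9 KO arrays and 171640.0, 35119 and 55019 on the WT arrays. The groups overlapped over their whole range, with a log2 fold change of 0.42 (SE 1.06).

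The enzymes of the second stage of the pathway came next. Triose phosphate isomerase (Tpi1), which interconverts the trioses, averaged 14.65 ± 2.60 in Trim9 KO and 14.71 ± 2.08 in WT retinas (log2 intensity, SD, n = 3 each), with overlapping groups. Phosphoglycerate kinase (Pgk1), an ATP-forming step, had a log2 fold change of 0.73 (SE 1.06), which was 0.010 without WT replicate 3, and its probe set designed for this gene alone had -0.71. Phosphoglycerate mutase (Pgam1), which moves the phosphate group along, was lower by mean in Trim9 KO retinas (log2 fold change -0.72, SE 0.98). For all of these the groups overlapped.

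Neuronal enolase (Eno2), which forms phosphoenolpyruvate, and pyruvate kinase (Pkm), which makes pyruvate and ATP from it, shared an outlying array. Eno2 read 508, 1379 and 791 on the Trim9 KO arrays and 331, 1127 and 19770.0 on the WT arrays. Pkm read 3476, 456 and 1769.8 on the Trim9 KO arrays and 1676, 3789 and 51404 on the WT arrays. In both genes WT replicate 3 was more than 10 times as bright as any other array, whereas the other 5 arrays overlapped between genotypes. The log2 fold change of Eno2 was -1.24 (SE 1.38) and 0.41 without WT replicate 3. For Pkm it was -2.27 (SE 1.35), the lowest of the glycolysis genes, and -0.82 without WT replicate 3.

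Lactate dehydrogenase is a tetramer of the Ldha subunit, which favours lactate formation, and the Ldhb subunit, which favours lactate use. Ldha read 49740.1, 29564 and 22248 on the Trim9 KO arrays and 34521, 41102 and 64938 on the WT arrays. Ldhb read 192292, 161000.0 and 71336 on the Trim9 KO arrays and 68152, 99176 and 16336 on the WT arrays. WT replicate 3 was the highest array for Ldha and the lowest for Ldhb, and for each gene the groups overlapped. The log2 fold changes were -0.50 (SE 0.92) for Ldha and 1.44 (SE 1.04) for Ldhb, the highest of the 31 genes. Without WT replicate 3 that of Ldhb was 0.66. The other 3 Ldhb probe sets had log2 fold changes of 0.82, 0.03 and -0.94. Those with 0.82 and 0.03 may cross-hybridize by design.

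The ratio of a pair of isozymes within 1 array does not depend on how that array was scaled. Probe sets differ in how strongly they bind, so only the change of a ratio between arrays can be read. The log2 ratio of Ldhb to Ldha was 1.95, 2.45 and 1.68 on the Trim9 KO arrays and 0.98, 1.27 and -1.99 on the WT arrays. Every Trim9 KO array lay above every WT array, and WT replicate 3 lay far below the other 5. The mean was 2.03 ± 0.39 in Trim9 KO and 0.09 ± 1.80 in WT retinas (SD, n = 3 each), a difference of 1.94 (exact permutation test, two-sided, p = 0.1, below which 3 arrays against 3 cannot go, and 0.6 after adjustment over the 6 pairs compared). The difference was 0.90 without WT replicate 3. Over the 4 pairings of Ldhb with Ldha probe sets it ran between -0.44 and 1.94, was above 0 in 3 of them, and left the groups apart in 1. The -0.44 came from the dimmest Ldhb probe set, which is not among those that may cross-hybridize.

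By their brightest probe sets, the other 5 ratios overlapped between genotypes. The log2 ratio of Hk2 to Hk1 averaged 0.15 ± 1.43 in Trim9 KO and -0.32 ± 0.42 in WT retinas (SD, n = 3 each, exact permutation p = 0.8), and its difference of 0.47 turned to -0.35 without Trim9 KO replicate 1. With the mean of each gene's probe sets the difference of Hk2 to Hk1 was 1.51 (exact permutation p = 0.1), and that of Ldhb to Ldha 0.84 (exact permutation p = 0.3). For Aldoc to Aldoa the means were -0.17 ± 0.10 in Trim9 KO and -0.51 ± 0.76 in WT retinas (SD, n = 3 each, exact permutation p = 0.5). The Trim9 KO arrays lay close together in this ratio and inside the WT range. Among the phosphofructokinase subunits the difference was -1.09 for Pfkl to Pfkm (exact permutation p = 0.4), -0.997 for Pfkp to Pfkm (p = 0.6) and -0.09 for Pfkl to Pfkp (p = 1). Over all pairings of probe sets, 1 of 2 for Hk2 to Hk1, 1 of 3 for Pfkp to Pfkm and 1 of 9 for Pfkl to Pfkp left the groups apart, and none for Pfkl to Pfkm or Aldoc to Aldoa. The ratio of Eno2 to Eno1 could not be formed here.

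**Figure D2:**
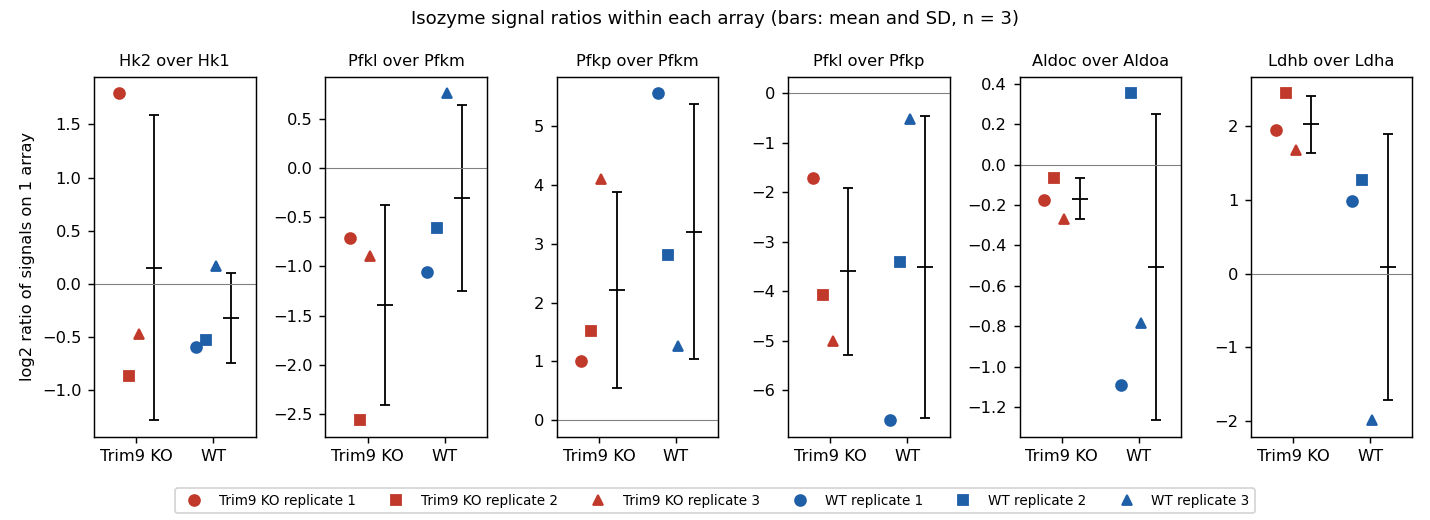
Log2 ratio of the signals of 2 isozymes on each array (y axis, 1 panel per pair with its own scale), Trim9 KO in red left of WT in blue, with bars for the mean and SD (n = 3). By these brightest probe sets Ldhb over Ldha is the only pair without overlap between genotypes, and WT replicate 3 is at -1.99 there.

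The promoters of the lactate dehydrogenase genes are shown because, by the brightest probe sets, this was the pair whose ratio did not overlap between genotypes. They are the 250 bases before the transcription start in RefSeq (build GRCm38.p6), where Ldha lies on the plus strand (chr7:46845554-46845803) and Ldhb on the minus strand (chr6:142507958-142508207). Capitals mark ACGTG on either strand, a form of the core letters of the element bound by hypoxia-inducible factors. They also mark any overlapping CACGTG, the E-box of Myc and other basic helix-loop-helix factors. Other forms of the hypoxia core, such as GCGTG, which the Ldhb window holds, were not marked or counted.
Ldha: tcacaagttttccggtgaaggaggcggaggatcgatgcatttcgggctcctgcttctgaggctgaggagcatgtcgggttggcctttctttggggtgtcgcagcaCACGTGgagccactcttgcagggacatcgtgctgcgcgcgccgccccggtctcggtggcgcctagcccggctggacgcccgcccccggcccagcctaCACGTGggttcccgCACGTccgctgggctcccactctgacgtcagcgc
Ldhb: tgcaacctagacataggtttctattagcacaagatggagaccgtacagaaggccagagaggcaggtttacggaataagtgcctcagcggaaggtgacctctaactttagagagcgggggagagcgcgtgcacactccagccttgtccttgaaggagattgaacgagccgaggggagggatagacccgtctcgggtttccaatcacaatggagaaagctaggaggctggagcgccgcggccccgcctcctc
This Ldha window held 3 such stretches, at 145, 48 and 34 bases before the start, and the Ldhb window held 0. Windows matched 33 of the 34 genes (not Idh3a), and 13 of the 33 (39.4%) had ACGTG on either strand in at least 1 window, against 18.5% of all genes. They were Slc2a1, Slc16a1, Hk2, Pfkm, Aldoa, Pgk1, Pgam1, Pkm, Ldha, Pdhb, Idh3g, Ogdh and Mdh1. CACGTG, whose matches are part of these, was found in 12.1% of the 33 against 6.86% of all genes. TAATCC, a letter string of photoreceptor homeobox factors such as Crx, was found on either strand in 6 of the 33 (18.2%) against 7.21% of all genes. The 33 genes had 50 windows, against 32851 windows for 27025 genes in all, which favours a match in at least 1 window. By window, ACGTG was found in 20 of the 50, against 16.6% of all windows. Base composition was not taken into account. A match is a description of these letters and not of a bound site.

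The pyruvate dehydrogenase complex had the lowest single value. Dld, the dihydrolipoamide dehydrogenase that this complex shares with the oxoglutarate dehydrogenase complex, read 105, 236 and 777 on the Trim9 KO arrays and 1368, 3590.4 and 4922 on the WT arrays. Every Trim9 KO array lay below every WT array, and the nearest pair was Trim9 KO replicate 3 and WT replicate 1. The mean log2 intensity was 8.18 ± 1.37 in Trim9 KO and 11.51 ± 0.96 in WT retinas (SD, n = 3 each). The log2 fold change was -3.33 (SE 1.06, exact permutation p = 0.1, limma adjusted p = 0.999). When any 1 array was left out it ran between -4.06 and -2.70. The other Dld probe set, also designed for this gene alone, read 1645, 409 and 77.6 on the Trim9 KO arrays and 198, 369.9 and 30.0 on the WT arrays. Its groups overlapped and its log2 fold change was 1.37 (SE 1.26), so the 2 Dld probe sets ran in opposite directions and their mean was -0.98.

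Pdha1, the catalytic alpha subunit, read 2496, 2552 and 8368 on the Trim9 KO arrays and 10781, 10982 and 10523 on the WT arrays. The WT arrays were nearly equal and all Trim9 KO arrays lay below them, with Trim9 KO replicate 3 close by. The log2 fold change was -1.51 (SE 0.95, exact permutation p = 0.1) and between -2.08 and -1.22 when an array was left out. The other Pdha1 probe set averaged lower in Trim9 KO retinas as well (log2 fold change -0.75), with overlapping groups. Pdhb, the beta subunit, and Dlat, the acetyltransferase core, had log2 fold changes of -0.24 and 0.33 with overlapping groups. Their other probe sets had 0.44 for Pdhb and -0.42 and -2.04 for Dlat, with overlapping groups. Pdk1, the kinase that switches the complex off, had a log2 fold change of 0.63 by its brightest probe set and between -1.23 and 0.85 over its 4 probe sets.

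Of the 10 TCA cycle genes, 4 averaged lower in Trim9 KO retinas, against 44.8% of all genes, and 6 averaged higher. Their median log2 fold change was 0.16, and it was -0.16 after array medians were made equal and -0.035 when all probe sets of a gene were averaged. Citrate synthase (Cs), the entry step, had a log2 fold change of 0.85 (SE 1.02) with overlapping groups, and with Trim9 KO replicate 2 left out it was 0.28, with Trim9 KO replicate 1 left out 1.47. Isocitrate dehydrogenase is built of the subunits Idh3a, Idh3b and Idh3g, and Idh3a is the catalytic one. Idh3a read 6669, 3542 and 7688 on the Trim9 KO arrays and 10444, 16223 and 10539.6 on the WT arrays. Here too the Trim9 KO arrays were all below the WT arrays, with gaps smaller than the spread within each group. The log2 fold change was -1.10 (SE 0.92, exact permutation p = 0.1). Of the other 3 Idh3a probe sets, 2 had log2 fold changes of -1.34 and -1.19, and the third, which may cross-hybridize, had 1.55. Idh3b and Idh3g had log2 fold changes of 0.31 and 1.31 with overlapping groups, and that of Idh3b was -0.016 after array medians were made equal. That of Idh3g was 0.65 without WT replicate 2 and 2.19 without WT replicate 1, and its other probe set, designed for this gene alone, had -1.39.

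The remaining cycle genes overlapped between genotypes. Ogdh, the first subunit of the oxoglutarate dehydrogenase complex, had the largest SE of the 31 (1.74, around a log2 fold change of -0.29), with signals of 26.8 to 1628 on the Trim9 KO arrays and 9.73 to 2283 on the WT arrays. Suclg1 and Sucla2, subunits of succinyl-CoA ligase, had log2 fold changes of -0.67 and -0.35. The other Sucla2 probe sets, also designed for this gene alone, had 1.21 and 1.47. Fumarase (Fh1) had 0.02, and -0.30 after array medians were made equal. Malate dehydrogenase, cytoplasmic (Mdh1) and mitochondrial (Mdh2), gave a log2 fold change of 1.02 (SE 1.19) for Mdh1 and 0.53 (SE 1.11) for Mdh2. Leaving out WT replicate 3 gave 0.12 for Mdh1, leaving out Trim9 KO replicate 1 gave 0.15, and its 3 probe sets designed for this gene alone had -0.96, -1.80 and 1.02. That of Mdh2 was -0.10 without Trim9 KO replicate 2 and -0.014 without WT replicate 3. A second Mdh2 probe set read 15526, 10126 and 16161 on the Trim9 KO arrays and 37379, 23276 and 42114 on the WT arrays. Here all Trim9 KO arrays lay below all WT arrays (log2 fold change -1.28, SE 0.91), against the direction of the brighter probe set.

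Over all 75 probe sets of these genes, 45 averaged lower in Trim9 KO retinas and 30 averaged higher. Of all genes, by their brightest probe sets, 44.8% averaged lower. Among the 75, 4 had an unadjusted limma p under 0.05, against 2.88% of all probe sets. In 6 all Trim9 KO arrays lay below all WT arrays, against 3.06% of probe sets that name 1 gene. In 0 of the 75 did all Trim9 KO arrays lie above, against 4.92%. The 6 were the probe sets of Slc2a1, Hk1, Pdha1, Dld, Idh3a and Mdh2 given above. Probe sets of the same gene often differed. Of the 23 genes with several, 7 had all of them on the same side of 0 (30.4%, against 37.6% of the 9010 genes with several). The 7 were Slc16a1, Hk1, Pfkp, Tpi1, Pdha1 and Ogdh, on the side of lower signal in Trim9 KO retinas, and Aldoc, on the other. The range of log2 fold changes within a gene had a median of 2.08, against 1.50 over all genes, and was widest for Dld (4.70) and Slc2a1 (4.05).

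**Figure D3:**
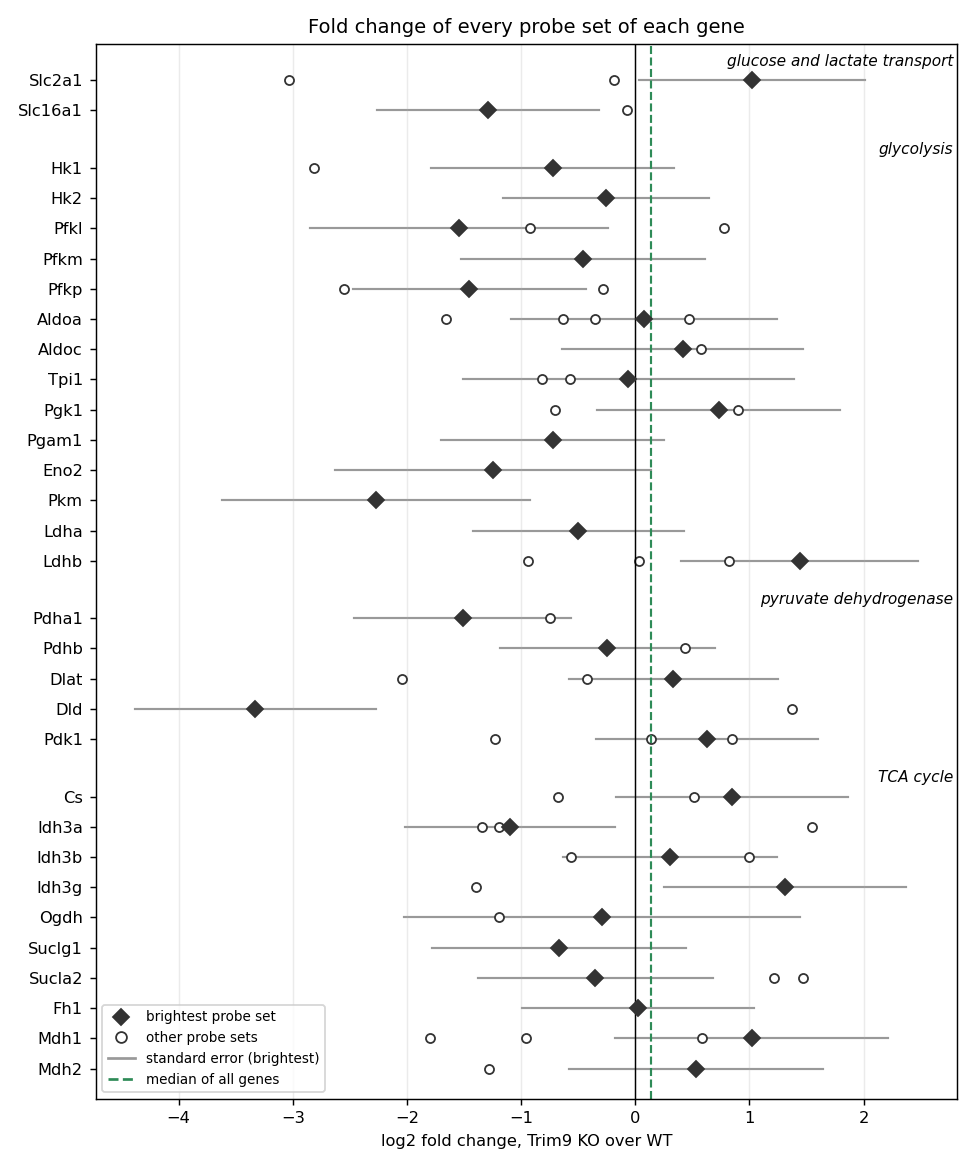
Log2 fold change, Trim9 KO over WT (x axis), of every probe set of each gene, with the brightest as a filled diamond with its standard error and the others as open circles, and the median over all genes as a dashed line. Probe sets of Dld span 4.70 and those of Slc2a1 4.05 on this scale, and most such bars cross 0.

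The arrays of a genotype differed in their balance of the pathways. For each gene the deviation from its own mean over the 6 arrays was taken, and the median over a group of genes was read on each array. For the 14 glycolysis genes it was -0.17, 0.05 and -0.27 on the Trim9 KO arrays and 0.14, 0.08 and 0.61 on the WT arrays. The Trim9 KO arrays all lay below the WT arrays, narrowly so for Trim9 KO replicate 2 and WT replicate 2, and WT replicate 3 was the highest. For the 10 TCA cycle genes it was -0.25, 0.26 and 0.43 on the Trim9 KO arrays and 0.52, -0.40 and -0.47 on the WT arrays. Here WT replicates 2 and 3 were lowest and WT replicate 1 highest. For all genes it lay between -0.05 and 0.23 on the Trim9 KO arrays and between -0.25 and 0.26 on the WT arrays. Glycolysis minus TCA cycle averaged -0.28 ± 0.40 in Trim9 KO and 0.39 ± 0.73 in WT retinas (SD, n = 3 each), with overlapping groups.

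A pair of WT arrays held most of the highest signals. WT replicate 1 was the brightest of the 6 arrays for 11 of the 31 genes (35.5%, against 10.5% of all genes) and WT replicate 3 for 8 (25.8%, against 13.3%). Over the 75 probe sets, WT replicate 3 was brightest for 23 (30.7%, against 16.1% of probe sets that name 1 gene). Trim9 KO replicate 1 was brightest for 2 (6.45%, against 31.3% of all genes). WT replicate 3 was also the lowest array for 7 of the 31 genes, against 21.6% of all genes. The lowest array was WT replicate 1 for 4 (against 19.9%) and Trim9 KO replicate 1 for 8 (against 22.3%). Among the 14 glycolysis genes WT replicate 3 was brightest for 6, which were Pfkl, Pfkm, Pgam1, Eno2, Pkm and Ldha, and WT replicate 1 for 7. Gapdh, the glycolytic dehydrogenase that arrays carry as a control, showed the same array standing out. Its middle control probe set read 1194, 2981 and 1783 on the Trim9 KO arrays and 1279.6, 2435 and 106830.0 on the WT arrays, and its 3′ control probe set 17768, 38534 and 62913 on the Trim9 KO arrays and 39172, 23223 and 104132 on the WT arrays. The ratio of the 3′ to the 5′ control signal, which grows as RNA is degraded or copied incompletely, was 134, 153 and 163 on the Trim9 KO arrays and 310.1, 82.0 and 0.905 on the WT arrays. WT replicate 3 was thus the only array with a 5′ signal as bright as its 3′ signal. What set the Gapdh ratio of an array was not tested. For the Actb control the same ratio was 2.83, 94.5 and 90.5 on the Trim9 KO arrays and 20.2, 9.87 and 3.43 on the WT arrays. It was lowest on Trim9 KO replicate 1, with WT replicate 3 next. The part of these control ratios in the signals of Pkm, Eno2, Pfkl and the dimmer Hk1 and Slc2a1 probe sets was not tested.

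**Figure D4:**
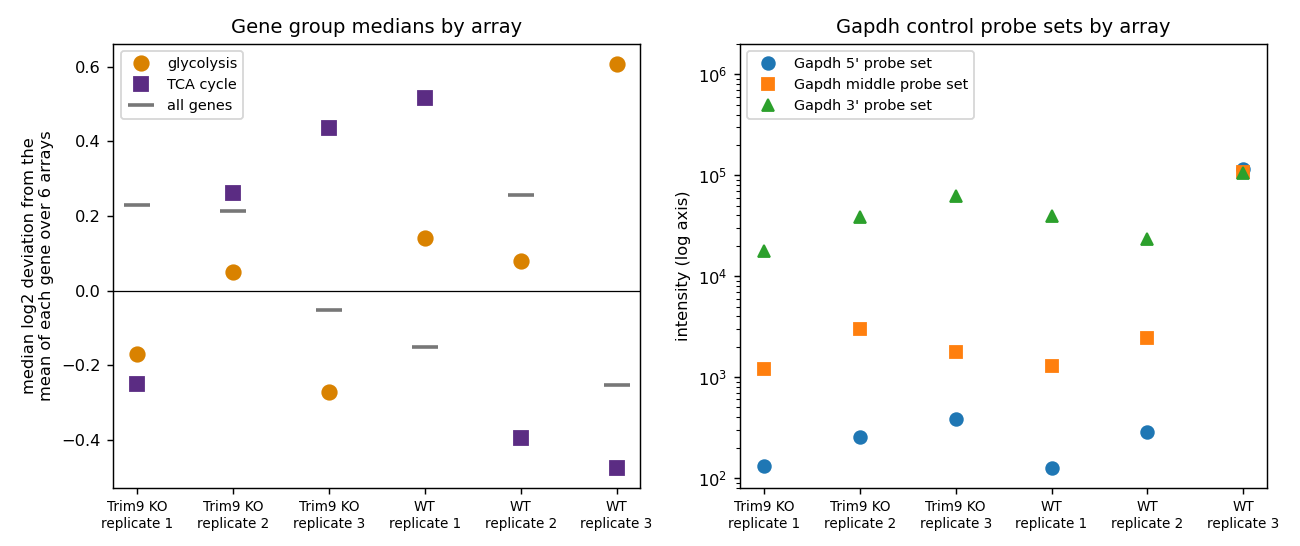
Left, median log2 deviation of the glycolysis, TCA cycle and all genes from each gene's mean over the 6 arrays (y axis) on each array, Trim9 KO arrays left of WT arrays. Right, intensity of the Gapdh 5′, middle and 3′ control probe sets on a log axis. WT replicate 3 has the highest glycolysis median (0.61) and the only 5′ Gapdh signal as bright as the 3′ signal.

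Other genes of the same pathways were counted beside these. Of all genes, 44.8% averaged lower in Trim9 KO retinas. Of 20 measured genes on a further glycolysis list of 23 (tissue-specific isozymes, regulators and transporters), 11 averaged lower in Trim9 KO retinas and 9 averaged higher, with a median log2 fold change of -0.07. For 1 of them, the muscle mutase Pgam2, all Trim9 KO arrays lay below all WT arrays, against 2.89% of all genes. Pgam2 read 32.1, 31.8 and 10.4 in Trim9 KO and 42.2, 181 and 366 in WT retinas. Its log2 fold change was -2.06 (SE 1.02) at a dim signal. Of 17 measured genes on a further pyruvate and TCA list of 19, 9 averaged lower and 8 averaged higher, with a median of -0.18. There Dlst, the succinyltransferase of the oxoglutarate dehydrogenase complex, which works with Ogdh and Dld, read 335, 482 and 144 on the Trim9 KO arrays and 608, 661 and 4715 on the WT arrays. For this 1 of the 17 all Trim9 KO arrays lay below all WT arrays, against 2.89% of all genes. WT replicate 3 was highest (log2 fold change -2.05, SE 1.09). Over both lists 0 genes had an adjusted limma p under 0.05, against 0.0% of all probe sets. An unadjusted limma p under 0.05 was found for 0, against 2.56% of all genes. A high WT replicate 3 signal was seen as well in basigin (Bsg), the membrane partner that carries Slc16a1 to the cell surface, a gene chosen after its values were seen. It read 1386, 296 and 829 on the Trim9 KO arrays and 630.5, 517 and 29664 on the WT arrays. Some other genes of these lists had their lowest signal on that array.

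Markers of retinal and neighbouring cells were read beside these values. For comparison, 44.8% of all genes averaged lower in Trim9 KO retinas. All 10 measured rod markers, of 12 listed, were brighter than the median probe set, which reading them by their brightest probe sets favours. Of them, 8 averaged lower in Trim9 KO retinas (median log2 fold change -0.56, summed intensity 856321 to 2870650.0 in Trim9 KO and 803682 to 2172920.0 in WT). Of 10 Müller glia markers, 8 averaged lower in Trim9 KO retinas (median -0.67, summed intensity 425852 to 532322 in Trim9 KO and 264519 to 634377 in WT). All 9 retinal pigment epithelium markers averaged higher in Trim9 KO retinas (median 0.87), with summed intensities of 465176 to 1378800.0 in Trim9 KO and 80456 to 496701 in WT. Their sum is mostly Ttr. The defining gene Rpe65 read 1561, 1337 and 9968 on the Trim9 KO arrays and 1290.3, 1888 and 1839 on the WT arrays, and was highest on Trim9 KO replicate 3, as were Lrat, Rgr, Tyrp1 and Tyr, whereas Ttr, Best1, Dct and Pmel were highest on Trim9 KO replicate 1. Each of the lists overlapped between genotypes, and their part in the values of the glycolysis and TCA cycle genes was not tested.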

How the data were processed

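RNA from 6 adult retina samples (3 Trim9 KO, 3 WT) was read, after amplification and biotin labelling, on 1 Affymetrix Mouse Genome 430 2.0 array per sample. Values were deposited as linear intensities, which the authors had scaled to a common mean after 2% was trimmed from each end. The submitters' processing notes name MAS5 with no version, whereas the paper's methods state RMA. RMA gives log2 values of equal distribution, which these are not. RMA from scanner files was not used here. Probe sets were named through GEO's platform annotation.

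Intensities were taken as log2(intensity + 16). Without the 64 controls, 45037 probe sets were compared by limma 3.58.1 (lmFit and eBayes, R 4.3.3), without filter or block, with Benjamini-Hochberg adjustment at 0.05. Of these, 34945 named 1 gene, 932 named several and 9160 named none, and only those naming 1 gene were assigned. Isozyme ratios were compared with two-sided exact permutation tests over arrays (SciPy 1.17.1). The fit was tested on simulated data. Tables and figures were made with Python 3.11.15, pandas 2.3.3 and matplotlib 3.10.9.

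All 34 genes were to be named. Signals on every array were given for members of isozyme pairs and for genes without overlap between genotypes, and other pathway genes were named only without overlap or with an unadjusted p under 0.05. Bsg is an exception. Per-array signals were also given for Pkm, Slc2a1, Eno2 and some dimmer probe sets. The genes, lists and tests were chosen with earlier results of these data known. Alternatives were quantile normalization, equal array medians, leaving out dim probe sets, pseudocounts of 1 and 64, a replicate block, limma's trend with a robust prior, array weights, averaging all probe sets of a gene and leaving out each array. A set of 4 arrays was added after seeing the data. No pair of arrays held identical values. Lens, blood, vessel and microglia marker lists had median log2 fold changes of 0.05, 0.87, 0.37 and 0.25, with overlapping groups. For blood 3 of 6 listed genes were measured, each at a dim signal.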

Additional observations from a re-analysis of the deposited data

How the results depend on the processing

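No probe set and none of the 31 genes reached an adjusted p of 0.05 in limma under any alternative run. The glycolysis median stayed below 0, at -0.80 after quantile normalization, -0.80 with equal array medians, -0.083 on the 4 arrays without Trim9 KO replicate 1 and WT replicate 3 (chosen after seeing the data), and between -0.68 and -0.060 when an array was left out, nearest to 0 without WT replicate 3. The TCA cycle median ran between 0.051 and 0.66 when an array was left out, the highest without WT replicate 1. The cause of these shifts was not tested.

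Isozyme differences turned sign for Hk2 to Hk1 (-0.35 to 0.98 when an array was left out, -0.11 on the 4 arrays), Pfkp to Pfkm (-1.97 to 0.18 when an array was left out) and Pfkl to Pfkp (-1.64 to 1.41 when an array was left out, 0.47 on the 4 arrays, 0.87 with the mean of probe sets). With the mean of probe sets Hk2 to Hk1 was 1.51 (exact p = 0.1). Ldhb to Ldha kept its sign, at 0.90 to 2.53 when an array was left out, 0.94 on the 4 arrays and 0.84 with the mean of probe sets, where the groups overlapped (exact p = 0.3).

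Log2 fold changes of 14 of the 31 genes kept their sign under the 13 alternatives that can move a fold change (a block, a trended prior and leaving out dim probe sets cannot), with Cs, Ldhb and Pdk1 above 0 and Dld, Hk2, Idh3a, Ldha, Pdha1, Pfkl, Pfkp, Pgam1, Pkm, Slc16a1 and Suclg1 below 0. The other 17 turned in at least 1. When an array was left out, values that turned ran as follows: Tpi1 between -1.22 and 1.43, Pdhb between -0.57 and 0.13, Sucla2 between -0.88 and 0.39, Aldoa between -0.84 and 1.02, Aldoc between -0.074 and 1.09, Ogdh between -2.23 and 1.13, Fh1 between -0.39 and 0.75, Pfkm between -1.25 and 0.43, Eno2 between -2.50 and 0.41, Mdh2 between -0.10 and 1.34, Hk1 between -1.27 and 0.21 and Idh3b between -0.074 and 0.69. With quantile normalization the value that turned was Aldoa -0.28. Those that turned with equal array medians were Aldoa -0.24, Idh3b -0.016 and Fh1 -0.30, with array weights Hk1 0.026, Tpi1 0.91, Sucla2 0.10 and Fh1 -0.12, with the mean of probe sets Slc2a1 -0.73, Aldoa -0.42, Pdhb 0.10, Dlat -0.71, Idh3g -0.043, Sucla2 0.78, Mdh1 -0.027 and Mdh2 -0.38, and on the 4 arrays Pfkm 0.30, Tpi1 1.75, Pgk1 -0.13, Eno2 0.75, Sucla2 0.27, Fh1 -0.20 and Mdh1 -0.75.

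Deviations of same-numbered arrays correlated at -0.23, -0.081 and 0.033, and those of differently numbered arrays between -0.29 and 0.28. With 3 arrays per genotype such values cannot show whether replicate numbers pair littermates. With a replicate block 0 probe sets passed in limma and 864 had an unadjusted p under 0.05, against 1296 without it, 3637 with array weights and 632 without dim probe sets. Under the block Ldhb to Ldha had an exact p of 0.25, the smallest that 3 pairs allow. The number of arrays limits every value, and an exact p cannot fall under 0.1, or 0.2 with 1 array left out.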
